A study of Mus musculus with 2 samples.

Results

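The cells described here are stress keratin high keratinocytes of mouse dorsal skin, 464 of 18965 retained cells from 2 single-cell libraries. A cell was chosen if Krt6a, Krt6b and Krt16 together made up at least 30 of every 10000 of its counts. It also needed fewer than 20 per 10000 of Lor, Flg and Flg2, the granular layer genes, and fewer than 20 per 10000 of Elovl3, Far2, Cidea and Awat2, the sebaceous genes. Cells with any count of Krt25 or Krt71, of the inner root sheath, or of Ptprc, the pan-leukocyte gene, were left out. These genes chose the cells, so their levels are a description only.

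The libraries came from C57BL/6 mice at postnatal week 7. One mouse group received imiquimod, a Toll-like receptor 7 agonist that brings on psoriasis-like dermatitis, and the other received imiquimod together with Shi-Bi-Man (SBM), a natural product whose effect on psoriasis is the stated subject of the study. Imiquimod was therefore given in both groups, no untreated library was analysed here, and whether skin from several mice was pooled was not given in the sources used here. With 1 library per group no difference has a replicate check, and treatment, mouse and library cannot be told apart.

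Krt6a, Krt6b and Krt16 encode stress or alarm keratins, which interfollicular epidermis makes little of at rest and induces after wounding and in psoriatic lesions, while the hair follicle companion layer makes them constitutively. Inflamed keratinocytes are also known to release the alarmins S100a8 and S100a9, antimicrobial peptides, IL-36 cytokines and neutrophil-attracting chemokines. The stefins are cytosolic inhibitors of cysteine proteases, and the small proline-rich and late cornified envelope proteins build the cornified envelope.

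The genes that set the libraries apart within these cells included a calcium-binding alarmin pair on chromosome 3 and a cluster of stefins on chromosome 16. Their promoters are shown so that the sequence beside each start can be read with the levels that follow. Each line holds 300 bases around the RefSeq start in build GRCm38.p6, written 5′ to 3′ on the strand of the gene, with the start at base 251 and motif matches in capitals. The windows are chr3:90668821-90669120 on the plus strand for S100a8, chr3:90695672-90695971 on the minus strand for S100a9, chr16:36276898-36277197 on the plus strand for Stfa1, chr16:36367521-36367820 on the minus strand for Cstdc5, and chr16:36455343-36455642 on the minus strand for Stfa3.
S100a8: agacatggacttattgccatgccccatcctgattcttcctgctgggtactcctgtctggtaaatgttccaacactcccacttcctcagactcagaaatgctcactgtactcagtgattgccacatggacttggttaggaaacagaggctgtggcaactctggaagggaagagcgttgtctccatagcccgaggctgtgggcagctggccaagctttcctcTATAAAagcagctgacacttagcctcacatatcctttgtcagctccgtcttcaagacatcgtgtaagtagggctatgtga
S100a9: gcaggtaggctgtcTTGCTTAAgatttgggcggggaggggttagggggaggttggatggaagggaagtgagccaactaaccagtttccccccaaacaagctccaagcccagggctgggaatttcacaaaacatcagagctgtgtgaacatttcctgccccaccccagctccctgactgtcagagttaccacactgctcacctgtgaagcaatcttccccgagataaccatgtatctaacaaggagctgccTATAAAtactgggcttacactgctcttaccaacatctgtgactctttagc
Stfa1: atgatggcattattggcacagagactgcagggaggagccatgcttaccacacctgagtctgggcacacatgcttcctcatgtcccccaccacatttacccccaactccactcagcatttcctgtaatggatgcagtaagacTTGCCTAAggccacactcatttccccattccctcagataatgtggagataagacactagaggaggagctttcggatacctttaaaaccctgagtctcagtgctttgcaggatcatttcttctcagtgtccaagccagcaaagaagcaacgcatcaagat
Cstdc5: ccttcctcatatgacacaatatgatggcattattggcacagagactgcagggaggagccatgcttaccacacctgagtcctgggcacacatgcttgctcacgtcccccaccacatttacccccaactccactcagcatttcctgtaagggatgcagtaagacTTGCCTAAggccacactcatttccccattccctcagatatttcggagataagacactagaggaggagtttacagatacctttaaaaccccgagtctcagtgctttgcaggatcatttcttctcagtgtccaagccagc
Stfa3: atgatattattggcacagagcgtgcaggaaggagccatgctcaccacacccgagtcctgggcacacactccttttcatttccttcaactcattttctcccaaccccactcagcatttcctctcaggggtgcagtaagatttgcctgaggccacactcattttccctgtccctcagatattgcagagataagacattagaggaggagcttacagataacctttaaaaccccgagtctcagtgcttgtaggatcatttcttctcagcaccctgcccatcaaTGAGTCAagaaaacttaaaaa

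The following motifs were searched on both strands. The AP-1 motif TGANTCA is present in 7.81% of 32851 RefSeq promoter windows of this length, the C/EBP motif TTGCNNAA in 10.8% and the TATA box TATAAA in 13.6%. S100a8 holds TATAAA from base 221. S100a9 holds TTGCTTAA from base 15 and TATAAA from base 251. Stfa1 and Cstdc5 share TTGCCTAA, from base 142 and base 163, and Stfa3 holds TGAGTCA from base 280, past the start. These matches describe the letters only. The Stfa1 and Cstdc5 windows were identical at 222 of 279 aligned bases (79.6%), Cstdc5 and Stfa3 at 219 of 277 (79.1%), and Stfa1 and Stfa3 at 186 of 298 (62.4%). Counts of such similar genes, and of the neighbours Krt6a and Krt6b, may be divided unevenly by the counting, so single values within these families are uncertain. The promoter table has no entry for Krt6a, Krt6b, Krt16 or Krt17, which lie on chromosomes 15 and 11.

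Before filtering, the imiquimod library held 28920316 counts in 11316 barcodes and the SBM library 20837259 counts in 8054 barcodes. Retained cells had median counts of 1616 and 1784. The libraries shared 49 barcodes, and 2 imiquimod members and 0 SBM members carried one of them. T cell control cells, defined by T cell receptor and Cd3 genes, numbered 890 in the imiquimod library and 40 in the SBM library, while the spinous comparator defined below numbered 500 and 1901.

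Stress keratin high cells were less frequent in the SBM library. They made up 413 of 11019 imiquimod cells, or 3.75% (Clopper-Pearson interval 3.40 to 4.12), and 51 of 7946 SBM cells, or 0.642% (0.478 to 0.843). The share was 5.84-fold lower with SBM (4.36 to 7.97), a log2 ratio of -2.55 (-3.00 to -2.12). All intervals have a confidence level of 95% and cover counting error only. The size of this gap moved with the keratin threshold. At 60 per 10000 there were 185 and 6 cells and the log2 ratio was -4.47, and at 15 per 10000 there were 797 and 251 cells and it was -1.20. After every cell was thinned to 500 counts the log2 ratio was -1.43, and without cells carrying T cell, myeloid or fibroblast genes at 20 per 10000 or more it was -3.14. Every one of these 4 alternatives kept the lower share in the SBM library.

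Of 501 imiquimod and 66 SBM cells past the keratin threshold, 88 and 15 were left out by the other criteria, most of them in the imiquimod library (63) for a Ptprc count and in the SBM library (8) for granular genes. Members had 4842 counts in the median imiquimod cell (range 500 to 30851) and 2056 in the median SBM cell (549 to 15149). No doublets were removed, and without the 4% of cells with most counts the log2 ratio of the shares was -2.35. Shallow cells pass the threshold on few counts: 39 of 413 imiquimod and 16 of 51 SBM members had fewer than 5 counts of the 3 stress keratins.

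Most members carried keratinocyte markers, but these shares were not set against control cells, and the part of RNA from outside the cell in them was not tested. At least 1 of 8 keratinocyte markers was counted in 407 of 413 imiquimod and 51 of 51 SBM members, and at least 4 of the 8 in 393 and 45. Krt6a, Krt6b and Krt16 were all present in 204 imiquimod members and in 7 SBM members. The word inflamed, as far as it rests on S100a8, S100a9 and Stfa1, was borne by most imiquimod members. In SBM members S100a8 was counted in 3, S100a9 in 5 and Stfa1 in 18 of 51 cells.

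**Figure D1:**
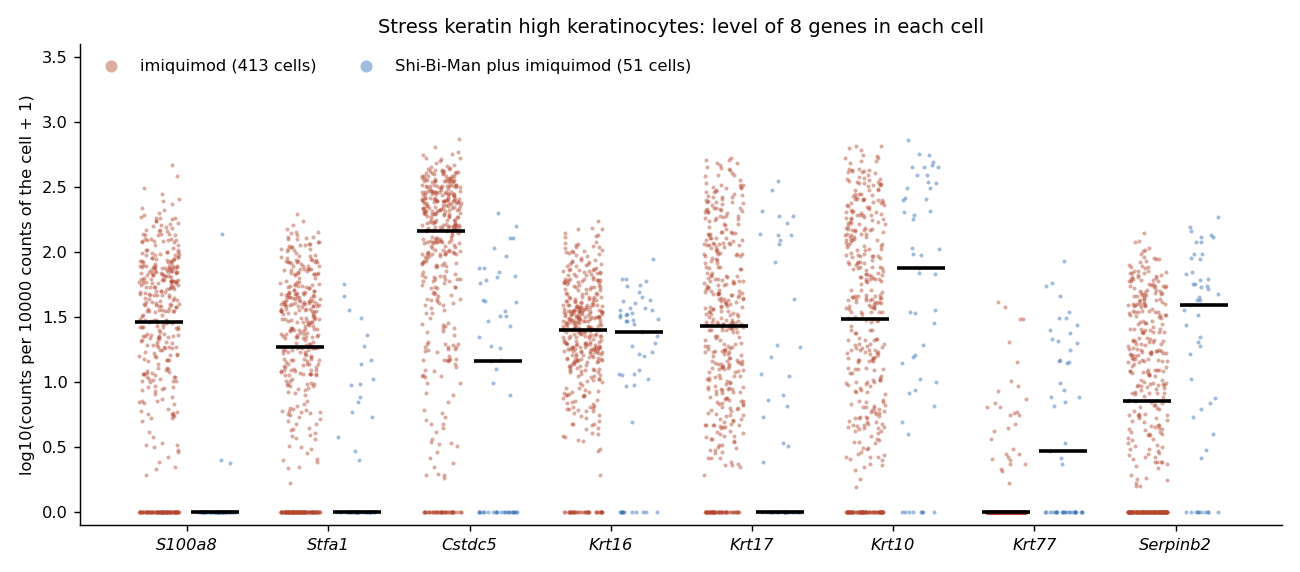
Each point is 1 stress keratin high cell and the black bar is the median, on a vertical axis of log10 of counts per 10000 counts of the cell with 1 added, for 8 genes along the horizontal axis and by library. S100a8 was counted in 78.9% of imiquimod cells and 5.88% of SBM cells, whereas Krt10 was counted in 82.1% and 84.3%.

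S100a8, one chain of the calprotectin heterodimer, was lower in SBM members. Its lowest, median and highest levels per 10000 counts were 0, 28.1 and 465 in the imiquimod cells and 0, 0 and 137 in the SBM cells. It was counted in 326 imiquimod cells (78.9%) and 3 SBM cells (5.88%). Summed over the cells it stood at 5643 CPM (summed counts per 1000000 counts of the cells) with imiquimod and 537 with SBM, a log2 ratio of -3.39 (-3.71 to -3.09). A single SBM cell held 86 of the 88 S100a8 counts, or 97.7%. That cell also carried the highest stress keratin level of the SBM members, 220 per 10000, and held 31 of 37 S100a9 counts and 49 of 88 Krt6b counts. Without it S100a8 stood at 12.7 CPM from 2 counts and the log2 ratio was -8.47.

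The partner chain S100a9 followed the same course. Its per-cell lowest, median and highest levels were 0, 14.7 and 416 per 10000 with imiquimod and 0, 0 and 49.5 with SBM. Its summed level was 3118 CPM against 226 CPM, a log2 ratio of -3.77 (-4.30 to -3.32), and 38.1 CPM in the SBM library without that 1 cell.

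Depth differed between the groups, so shares were also taken after thinning each cell to 500 counts, which left out no cell. S100a8 was then seen in 60.5% of imiquimod members (55.6 to 65.3) and 1.96% of SBM members (0.0496 to 10.4). In fibroblast control cells, which should lack it, thinned shares were 4.07% and 0.0844%, in T cell controls 4.83% and 2.5%, and in spinous comparator cells 28.0% and 0.473%. The imiquimod share thus lay above both controls. The SBM share came from 1 of 51 members, and that of the SBM T cell controls from 1 of 40 cells. The SBM member share lay above the SBM fibroblast and spinous shares and below the T cell share. With so few cells it cannot be told apart from background. Median depths before thinning were 2112 and 2260 counts in the fibroblast controls.

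S100a8 was also present in cells under the keratin threshold. In the imiquimod library it stood at 797 CPM in otherwise eligible cells with 5 to 10 stress keratin counts per 10000, 2979 CPM just under the threshold (25 to 30, 77 cells), 2246 CPM just above it (30 to 35, 71 cells) and 11385 CPM at 200 or more (20 cells). In the SBM library it was 15.2 CPM just under the threshold (31 cells), 18.5 CPM just above it (19 cells), and 13725 CPM in the 1 cell at 200 or more. Stfa1 just under and just above the threshold was 2894 and 1819 CPM with imiquimod and 486 and 498 CPM with SBM. Both genes stood higher in the imiquimod library on either side of the threshold.

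**Figure D2:**
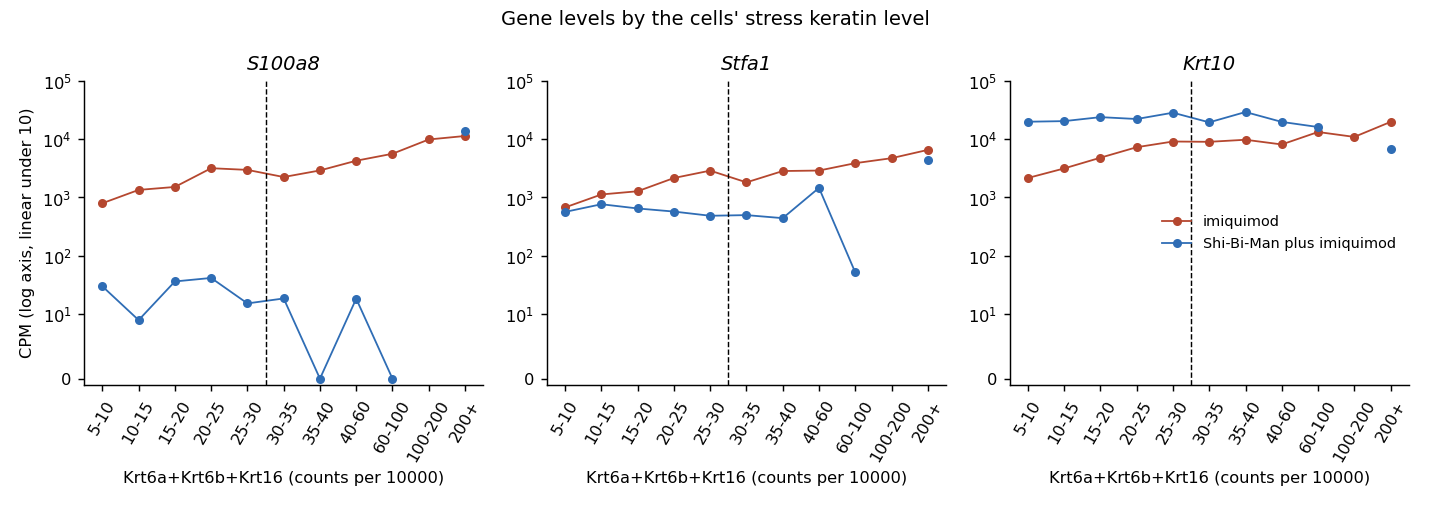
Summed level of S100a8, Stfa1 and Krt10 in CPM (vertical log axis, linear under 10) against the stress keratin level of the cells (horizontal, counts per 10000), with the dashed line at the threshold of 30. S100a8 in the imiquimod library climbed from 797 CPM in the lowest range to 11385 CPM in the highest, and no SBM cell fell between 100 and 200.

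Other secreted defence genes were also lower in SBM members. Chil1, a chitinase-like glycoprotein, stood at 955 CPM with imiquimod and 122 CPM with SBM, a log2 ratio of -2.93 (-3.68 to -2.34), and its 20 SBM counts came from 3.92% of the cells. Defb6, a beta-defensin, stood at 3705 and 787 CPM, log2 -2.23 (-2.50 to -1.98). Defb14, the mouse counterpart of human beta-defensin 3, stood at 223 and 61.0 CPM, log2 -1.80 (-2.94 to -0.98). Rnase2b, an eosinophil-associated ribonuclease family member, had 504 counts with imiquimod and 1 with SBM, a log2 ratio of -4.62 with a wide interval (-10.51 to -2.72). Each of these was lower past 1.5-fold with an interval clear of no change. Of 20 listed alarmins and antimicrobial peptides, 9 reached 20 counts over the members of both libraries, the minimum for a ratio. Of these, 7 were lower and 1 higher past 1.5-fold, with a median log2 ratio of -1.80, and the summed level of the list was 10165 CPM against 1086 CPM.

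Across all 8239 measured genes, 29% were higher and 17.6% lower past 1.5-fold in SBM members, and the median log2 ratio was 0.15. With the counting interval also clear of no change the shares were 9.18% (756 genes) higher and 3.53% (291 genes) lower. By that stricter count 5 of the 9 alarmins and antimicrobial peptides were lower and 0 higher. The balance of all genes depended on scaling: higher genes made up 62.3% of those past 1.5-fold on the CPM scale, but 36.2% with TMM factors (1375 higher, 2424 lower) and 37.7% with DESeq2 size factors (1415 higher, 2343 lower). These factors moved the median of all genes by -0.33 and -0.31, and with either of them 8 of the 28 list medians changed sign, each a median above 0 and within 1.5-fold. Over all alternatives, 20 of the 22 list medians within 1.5-fold changed sign in at least 1, so no direction is given for them. A gene high only in imiquimod members can reach 20 counts more easily, because those members held 2242571 counts against 163895.

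The stefins formed the second group of genes with lower levels in SBM members. Stfa1 had lowest, median and highest levels of 0, 17.6 and 195 per 10000 with imiquimod and 0, 0 and 56.0 with SBM. Its summed level was 3530 CPM against 909 CPM, log2 -1.95 (-2.20 to -1.72), and thinned shares of cells with a count were 51.6% and 15.7%. Stfa3 stood at 6120 and 2050 CPM, log2 -1.58 (-1.74 to -1.42). Cstdc5, a further stefin-like gene of the chromosome 16 cluster, stood at 18641 and 4655 CPM, log2 -2.00 (-2.11 to -1.90). Of 8 stefins matched in the files, 6 were measured, and 3 were lower, 0 higher, with a median log2 ratio of -1.06. How reads were assigned among them was not tested.

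Further epidermal genes were lower as well. Serpinb3a, a clade B serpin and the mouse relative of the human squamous cell carcinoma antigens, stood at 492 and 48.8 CPM, log2 -3.25 (-4.55 to -2.35). Fabp5, the epidermal fatty acid-binding protein, stood at 3087 and 1031 CPM, log2 -1.58 (-1.81 to -1.36). Crabp2, a retinoic acid-binding protein, stood at 395 and 85.4 CPM, log2 -2.16 (-3.09 to -1.46), although among suprabasal members alone it was 0.62. Gpx1, a glutathione peroxidase, stood at 1787 and 799 CPM, log2 -1.16 (-1.42 to -0.91). Klk6, a kallikrein-related serine protease, had 382 counts with imiquimod and 6 with SBM, all from 1 cell.

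Krt77, Mt4 and Krt10 were higher in SBM members, although the spinous keratinocyte list they are compared with was divided: 4 of its 16 measured genes were higher and 3 lower, median log2 -0.065. Krt77, a keratin of suprabasal epidermis and sweat ducts, was counted in 7.75% of imiquimod and 54.9% of SBM cells, with highest levels of 40.5 and 83.8 per 10000. Its summed level was 70.0 CPM against 1312 CPM, log2 4.23 (3.92 to 4.53). Mt4, the metallothionein of stratified epithelia, was counted in 7.75% and 31.4% of cells and stood at 33.4 and 616 CPM, log2 4.20 (3.76 to 4.65). Krt10, the type I keratin of the spinous layer, had median levels of 29.7 and 73.6 per 10000 and stood at 10932 and 20525 CPM, log2 0.91 (0.86 to 0.96). Its partner Krt1 stood at 11596 and 13112 CPM, log2 0.18 (0.11 to 0.24), within 1.5-fold, and Krtdap, a secreted protein of differentiating keratinocytes that was chosen after its values were seen, at 7807 and 5870 CPM, log2 -0.41 (-0.51 to -0.32), also within it. The log2 ratio of Krt10 was 0.58 with TMM scaling, short of 1.5-fold, and 0.061 at a threshold of 60 per 10000, whereas the log2 ratio of Krt77 lay between 3.64 and 4.76 in all alternatives that gave a value.

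**Figure D3:**
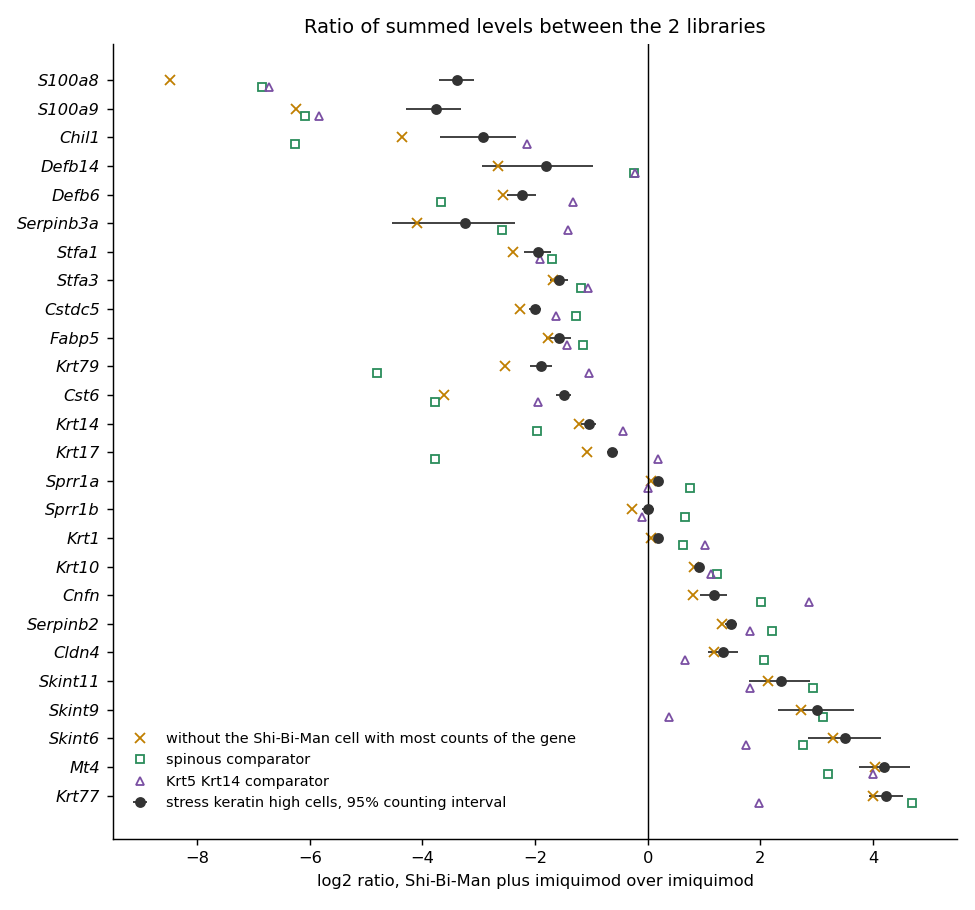
Log2 ratio of SBM over imiquimod for named genes (horizontal axis), as filled circles with 95% counting intervals in stress keratin high cells, crosses without the SBM cell holding most counts of the gene, and open symbols for the 2 comparators described below. S100a8 lies at -3.39 in the stress keratin high cells and -6.85 in the spinous comparator, and Krt77 at 4.23 and 4.70.

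Serpinb2, plasminogen activator inhibitor 2 of keratinocytes, stood at 1999 CPM with imiquimod and 5577 CPM with SBM, log2 1.48 (1.38 to 1.58). Its median level was 6.11 and 38 per 10000. Serpinb12, which was chosen after its values were seen, stood at 120 and 342 CPM, log2 1.51 (1.06 to 1.92), so serpins of one clade differed in opposite directions. Of 19 measured serpins and related genes 5 were higher and 6 lower, median -0.043. Cnfn, the envelope protein cornifelin, stood at 467 and 1056 CPM, log2 1.18 (0.94 to 1.41). Cldn4, a tight junction claudin, stood at 345 and 873 CPM, log2 1.34 (1.07 to 1.60), but its ratio was -0.071 at a threshold of 60 per 10000.

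The Skint family, selection and upkeep of intraepithelial T cells genes expressed by keratinocytes, had 10 measured members with 5 higher and 1 lower, median log2 1.03, and the same counts by the stricter rule. In follicle-marked members, the largest of the states defined below, 4 of 9 were higher and 3 lower, median 0.25. There 2582 of all 7608 measured genes were higher and 1621 lower, median 0.23. In suprabasal members 2 of 4 Skint genes were higher and 0 lower, median 1.36. Of all 1882 genes measured in that state, 414 were higher and 354 lower, median 0.075. Skint6 stood at 20.5 and 232 CPM, log2 3.50 (2.84 to 4.15). Skint9 stood at 23.6 and 189 CPM, log2 3.01 (2.31 to 3.67), and Skint11 at 49.1 and 250 CPM, log2 2.36 (1.80 to 2.88). The summed Skint level was 525 CPM with imiquimod and 1074 CPM with SBM. In the spinous comparator it was 538 and 1377 CPM, and in all retained cells 163 and 621 CPM. In the Krt5 Krt14 comparator, also defined below, it was 217 and 151 CPM, the other way.

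Cytokine genes had low counts in these cells. The IL-36 alpha gene Il1f6 had 214 counts with imiquimod and 3 with SBM, a log2 ratio of -2.16 (-4.67 to -0.82) that became 1.08 after thinning. The IL-36 gamma gene Il1f9 stood at 228 and 281 CPM, log2 0.31 (-0.17 to 0.73), and was seen in 9.93% and 13.7% of thinned cells. The receptor antagonist gene Il1rn stood at 230 and 275 CPM, log2 0.27 (-0.22 to 0.70). Over 7 measured IL-1 and IL-36 genes, 4 were lower and 0 higher, 1 of them by the stricter rule, and the median of -0.81 became 0.00 with genes at 0 set to their bounds. The summed level of the family was 805 and 830 CPM, so no direction can be given for it.

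The 17 measured chemokines and growth cytokines had 2 higher and 6 lower, median -0.26, with 1 and 1 by the stricter rule. Cxcl16, which was chosen after its values were seen because the title of the series names it, stood at 172 and 122 CPM, log2 -0.46 (-1.22 to 0.15). For cytokine receptors 6 of 15 were higher and 4 lower, median 0.28. NF-kB, STAT3 and C/EBP response genes had 6 of 20 higher and 2 lower, median 0.30, and among them Nfkbia, the feedback inhibitor, stood at 1475 and 2068 CPM, log2 0.49 (0.32 to 0.65). Birc3, an NF-kB target, had 197 counts and 3 counts, log2 -2.04 (-4.55 to -0.69). EGF receptor ligands and wound genes had 4 of 22 higher and 8 lower, median -0.18, with Ereg, encoding epiregulin, at 332 and 177 CPM, log2 -0.88 (-1.50 to -0.37). With TMM factors the medians of the receptors and of the NF-kB, STAT3 and C/EBP response genes changed sign, to -0.049 and -0.030. Those of the chemokines and of the wound genes stayed below 0 under every scaling and changed sign without mixed cells, to 0.11 and 0.11.

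The envelope precursors Sprr1a and Sprr1b differed by less than 1.5-fold between the libraries in summed level. Sprr1a stood at 9102 and 10299 CPM, log2 0.18 (0.11 to 0.25), and Sprr1b at 4433 and 4436 CPM, log2 0.00 (-0.11 to 0.11). Sprr1b was seen in 57.9% and 54.9% of thinned cells. Of 24 measured small proline-rich and cornification genes, 6 were higher and 4 lower, median 0.20, and the sum was 19760 and 21990 CPM. At a threshold of 60 per 10000 that median was -0.62. Lgals7, the keratinocyte galectin, stood at 15349 and 10446 CPM, log2 -0.55 (-0.63 to -0.49).

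**Figure D4:**
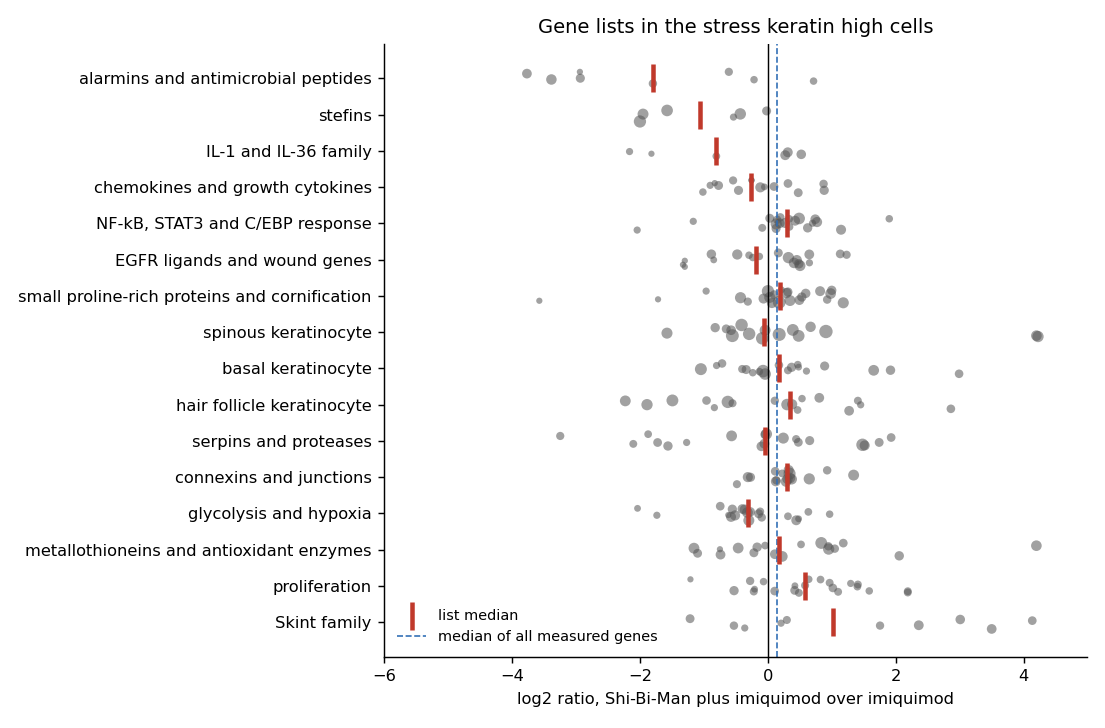
Each row is a gene list. Points are log2 ratios of SBM over imiquimod for measured genes with counts in both libraries, larger for more counts in SBM members. The bar is the list median, which also takes in measured genes at 0 in 1 library. The dashed line is the median of all measured genes, 0.15. Among the lists shown, alarmins (median -1.80) and stefins (-1.06) lie furthest to the left, and the Skint family lies at 1.03. Not all lists are shown, and T cell markers, which are left out, had a median of -1.27. Of all 22 medians within 1.5-fold, 20 changed sign in at least 1 alternative.

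Metallothionein and antioxidant genes had 7 of 18 higher and 4 lower, median 0.17. Mt1, the stress-inducible metallothionein, stood at 1540 and 2746 CPM, log2 0.84 (0.69 to 0.98), which was 0.35 without the SBM cell that held most of it, and Hmox1, heme oxygenase, at 40.1 and 165 CPM, log2 2.06 (1.36 to 2.67). Proliferation genes had 11 of 23 higher and 2 lower, median 0.58, but 2 and 0 by the stricter rule, and the list median was -0.23 at a threshold of 60 per 10000. Interferon genes had 2 of 10 higher and 5 lower, median -0.53, with 1 and 2 by the stricter rule, and the median was 0.29 with the mean over members. For glycolysis the numbers were 2 higher and 4 lower of 20, median -0.31, for junction genes 3 and 0 of 16, median 0.30, and for immediate-early genes 3 and 0 of 27, median 0.22.

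Among follicle genes, Krt79, Cst6 and Krt17 had lower summed levels in SBM members, while the list as a whole was divided. Krt79, of the upper follicle and sebaceous duct, had median levels of 4.29 and 0 per 10000 and stood at 5009 and 1348 CPM, log2 -1.89 (-2.09 to -1.70). Cst6, an epidermal cystatin, stood at 7906 and 2807 CPM, log2 -1.49 (-1.63 to -1.36), and 77.6% of its SBM counts lay in 1 cell, without which the ratio was -3.62. Krt17, a keratin of follicles and of stressed epidermis, stood at 7830 and 5070 CPM, log2 -0.63 (-0.73 to -0.53). Its thinned shares were 62.5% and 33.3%, and 34.1% of its SBM counts lay in 1 cell. In the states defined below its log2 ratio was -0.24 in follicle-marked and -0.38 (-0.81 to 0.023) in suprabasal members, both within 1.5-fold. In basal members it was 2.21 (1.81 to 2.58), the other way, from 68 SBM counts in 3 of 4 cells. Alcam and Id4 stood higher with SBM (log2 2.79 and 2.17), with 55.2% and 71.4% of their SBM counts in 1 cell. Krt15, a keratin of basal and bulge cells, stood at 229 and 720 CPM, log2 1.66 (1.35 to 1.94), and Krt14, the basal keratin, at 6412 and 3100 CPM, log2 -1.05 (-1.18 to -0.92). Over 18 measured follicle genes 6 were higher and 6 lower, median 0.34, and over 19 basal genes 5 and 3, median 0.17.

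Members were divided into states by marker genes. A cell was called follicle-marked if Krt79, Krt75, Cst6, Defb6, Lhx2 and Sox9 made up at least 10 per 10000 of its counts, and otherwise suprabasal or basal by whether Krt1, Krt10 and Krtdap exceeded Krt5 and Krt14. Follicle-marked cells were 317 imiquimod members (76.8%, 72.4 to 80.7) and 28 SBM members (54.9%, 40.3 to 68.9). Suprabasal cells were 44 (10.7%, 7.85 to 14) and 18 (35.3%, 22.4 to 49.9), basal cells 48 (11.6%) and 4 (7.84%), and 4 and 1 had neither. The mark is not exclusive to follicle cells, since it also took 62.8% and 23.4% of the spinous comparator, 12.7% and 2.03% of fibroblast controls and 19.9% and 7.5% of T cell controls. In a cell of fewer than 1000 counts, as 64 imiquimod and 16 SBM members were, 1 count exceeds 10 per 10000. The part of free RNA in the mark was not tested.

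**Figure D5:**
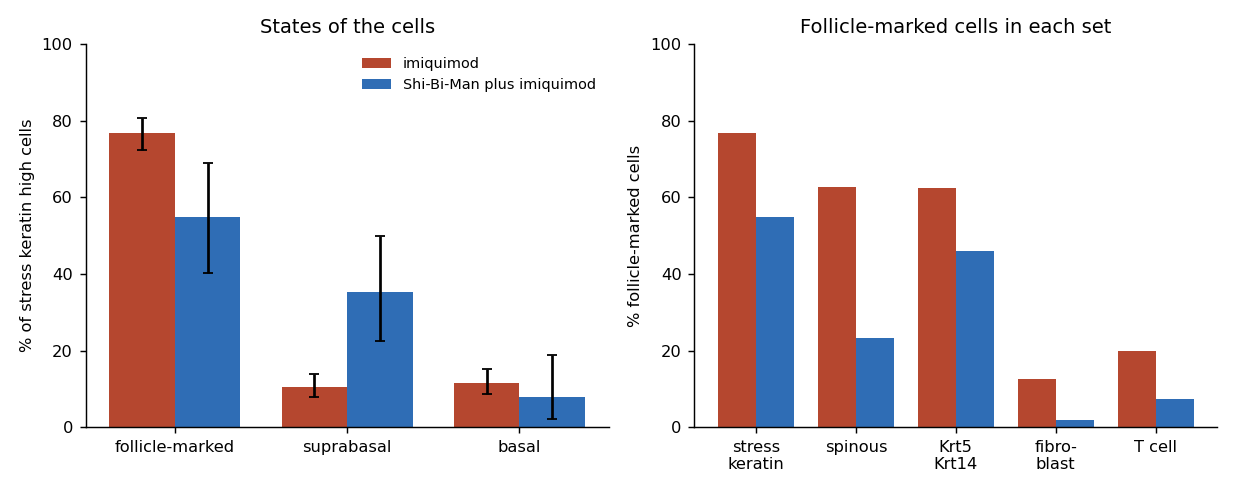
The left panel gives the percentage of stress keratin high cells in each state by library, with Clopper-Pearson intervals as bars, and the right panel the percentage of follicle-marked cells in each set of cells. Suprabasal cells were 10.7% of imiquimod and 35.3% of SBM members, and the follicle mark was less frequent in the SBM library in all 5 sets.

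The libraries differed within each state. In follicle-marked cells S100a8 stood at 5760 CPM with imiquimod and 11 CPM with SBM, where the SBM value is 1 count, log2 -8.45 (-14.34 to -6.55). In suprabasal cells it stood at 5629 and 1346 CPM, log2 -2.06, and the 1 cell described above belongs to this state. In basal cells it stood at 4631 CPM with imiquimod and had 0 of 7858 counts with SBM, from 4 cells. Set against 3 counts that is 12.1-fold lower, and the interval ends at log2 -3.30. Stfa1 had log2 ratios of -3.57 in follicle-marked and -1.76 in suprabasal cells, and Cstdc5 -2.72 and -1.93. Krt10, which helped to set the suprabasal state, had 0.26 and 1.23, and Krt77 had 3.94 in follicle-marked cells. In suprabasal cells imiquimod had 0 counts of Krt77. Set against 3 counts the SBM level was 94-fold higher, and the interval starts at log2 6.23. Serpinb2 had 1.04 and 1.35, and Fabp5 -2.34 and -1.65. The lower alarmin and stefin levels and the higher Krt77 and Serpinb2 levels were therefore present in both of the larger states.

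To see whether these differences belonged to the stress keratin high cells, neighbouring keratinocytes were measured. The spinous comparator passed the same exclusions with stress keratins under the threshold and at least 30 per 10000 of Krt1 and Krt10, and the Krt5 Krt14 comparator (1210 and 659 cells) had at least 30 per 10000 of Krt5 and Krt14 instead. S100a8 was 1968 and 17 CPM in the spinous comparator, log2 -6.85, and -6.73 in the Krt5 Krt14 comparator. Krt77 was 72.2 and 1882 CPM in the spinous comparator, log2 4.70. Serpinb2 had 2.21 there, Stfa1 -1.70, Cstdc5 -1.27 and Krt10 1.23. Krt10 helped to choose the spinous comparator, so its ratio there is a description only. S100a8, Krt77, Serpinb2, Stfa1 and Cstdc5 thus differed in the same direction outside the stress keratin high cells. No test of a difference between cell groups was possible. Krt17 had -3.78 in the spinous comparator and 0.18 in the Krt5 Krt14 comparator, against -0.63 in the members. Defb14 had -0.24 in the spinous comparator, against -1.80.

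Within the imiquimod library, members stood above the spinous comparator in Krt6b (log2 4.04), Krt6a (2.59) and Krt16 (2.54), the genes that chose them. Other genes with high ratios were Lce3f (3.51) and Lce3d (2.40), late cornified envelope genes of the group induced in psoriasis, and Gjb2, encoding connexin 26, at 436 CPM against 82.5 CPM (2.40). Crct1, a cornification gene, was at 535 against 109 CPM (2.29), Defb14 at 2.23, and Ereg at 2.08. The choice of cells drew this contrast, so the values are descriptive. Past 1.5-fold 6.08% of 10014 genes were higher and 18% lower than in the spinous comparator, and 11.2% of 11763 higher and 34.5% lower than in the Krt5 Krt14 comparator. Cornification genes were higher than in the spinous comparator for 19 of 25, median 1.72, alarmins for 6 of 10, and stefins for 3 of 6, while of 27 proliferation genes 12 were lower and 0 higher. Lce3d itself was 0.98 higher on the log2 scale in SBM than in imiquimod members, but -0.96 without the SBM cell that held most of it.

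Genes of other cell types were present at low levels. T cell markers summed to 336 and 146 CPM in the members, against 2883 and 804 CPM in all retained cells, and myeloid and Langerhans cell markers to 1373 and 1117 CPM against 18340 and 5933 CPM. Fibroblast markers summed to 1309 and 2544 CPM against 13830 and 29372 CPM, and 6 of 14 measured were higher in SBM members, median 0.56. Neutrophil markers summed to 1422 and 1464 CPM, of which Asprv1, also a keratinocyte gene, gave 1325 and 1434 CPM, while Ly6g, Itgam and Fpr1 were at 0 in both libraries and Csf3r had 1 count and 0 counts. S100a8 and S100a9 are also abundant in neutrophils. Cells with a Ptprc count were left out, so low levels of leukocyte genes were partly set by the choice of cells. Of 20 listed neutrophil markers, 4 had at most 10 counts in the whole series and only 4 were measured in the members. Whether neutrophil RNA contributed to the S100a8 level was not tested. Cells with at least 20 per 10000 of T cell, myeloid or fibroblast genes were 99 of 413 imiquimod and 21 of 51 SBM members, and the part of these genes in the other differences was not tested.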

How the data were processed

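The 2 dorsal skin libraries were profiled by 3' single-cell RNA sequencing. The authors deposited raw counts as sparse matrices, per the file headers, with the names of genes and barcodes in other files. Per the submitters' processing notes, the genome builds were mm10 and GRCm38. Aligner, counter, cell calling and any collapsing of molecules are not given in the sources used here. Barcodes needed at least 200 genes and at most 20% mitochondrial counts, and the gene minimum removed 192 (imiquimod) and 7 (SBM), the mitochondrial limit a further 105 and 101. Entries sharing a symbol were summed. The members and 29 gene lists were chosen with earlier results of these data known.

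Counts of members were summed per library and given as counts per 1000000 (CPM) with exact Poisson intervals. Ratios are log2 of SBM over imiquimod with 0.5 added to each count and exact conditional binomial intervals. Shares have Clopper-Pearson intervals. A gene was measured with at least 20 counts and counted higher or lower past 1.5-fold. With 0 counts, a fold is a bound against 3 counts per library. The smallest CPM so resolved was 1.34 with imiquimod and 18.3 with SBM, where 1 count is 0.446 and 6.10 CPM. No test between groups was run.

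Named genes were the 6 markers, Krt17, in every list the 4 genes of largest ratio and the 2 of most counts, the 8 highest and 8 lowest ratios, and the 12 highest over the spinous comparator. The extremes needed a mean of 100 CPM, 50 counts, at least 50% of the all-cell CPM and at most 20% of counts in 1 cell. The intervals were tried on simulated sums with the Poisson counting error that they assume. Differences between cells were not simulated, so that trial does not show how the intervals do where single cells hold many counts. Promoters came from RefSeq (GRCm38.p6). Alternatives varied the keratin threshold, cell filters, depth, scaling and the count minimum. Leaving out single SBM cells, a mean CPM of at least 100 and single states were added after seeing the data. Python 3.11.15, numpy 2.4.6, scipy 1.17.1, pandas 2.3.3, matplotlib 3.10.9, R 4.3.3, edgeR 4.0.16 and DESeq2 1.42.0 were used, the latter pair for scaling factors only.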

Additional observations from a re-analysis of the deposited data

How the results depend on the processing

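No paired analysis was possible because each group holds 1 library. The lower share of stress keratin high cells kept its direction in all 9 alternatives, with log2 ratios of -4.47 (60 per 10000), -1.20 (15 per 10000), -1.43 (thinned to 500 counts) and -3.14 (without mixed cells) furthest from -2.55. The number of measured genes also changed with some settings. The 2386 genes higher (29% of 8239) became 1375 with TMM (16.7%) and 1415 with DESeq2 factors (17.2%). After thinning they were 477 of 2285 (20.9%), and with at least 50 counts 1238 of 5447 (22.7%). Without the count minimum they were 4550 of 12455 (36.5%), and with a mean of at least 100 CPM 265 of 1538 (17.2%). The 1446 genes lower (17.6%) became 2424 with TMM (29.4%), 2343 with DESeq2 factors (28.4%) and 2337 with the mean over members (28.4%). They were 454 after thinning (19.9%), 885 with at least 50 counts (16.2%) and 2182 without the count minimum (17.5%). With a mean of at least 100 CPM they were 141 (9.17%). The alarmin median became -3.81 after thinning, over 4 measured genes instead of 9. The rule was applied again to the thinned cells, so that setting held 433 imiquimod and 116 SBM members. The stefin median became -0.79 without the 4% of cells with most counts and -2.14 in follicle-marked members. The cornification median became -0.62 at 60 per 10000 and -0.42 without mixed cells. Of the 6 list medians past 1.5-fold, those of the IL-1 and IL-36 family and of T cell markers reversed. The first was 0.61 over 3 genes after thinning and 0.23 over 9 genes without the count minimum. The second was 0.050 over 4 genes at 60 per 10000. Of the 22 within 1.5-fold, 20 changed sign in at least 1 alternative, among them proliferation (-0.23 at 60 per 10000) and cornification. Among named genes, Krt6a (0.053), Cldn4 (-0.071) and Lce3d (-2.63) reversed at 60 per 10000, and Il1f6 (1.08) after thinning. Id4 (-0.37) and Lce3d (-0.16) reversed without the 4% of cells with most counts. Lce3d also reversed without mixed cells (-1.37) and without its top SBM cell (-0.96). Cst6 (0.089) and Crabp2 (0.62) reversed in suprabasal members. The causes were not tested. For 20 pairs of a named gene and an alternative no value could be had. With 51 SBM cells, 1 count is worth 6.10 CPM and single cells decide several values.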
